A study of Mus musculus with 65 samples.

Results

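The 78 genes described here encode proteins of the mitochondrial ribosome. They are the rows of a table of 55292 genes whose symbol is Mrpl or Mrps followed by a number and at most 1 letter, 49 Mrpl genes of the large subunit and 29 Mrps genes of the small subunit. The rule rests on names alone and used no measured value, though it was set with earlier results of these data known. By structure the names are not exact: the protein of Mrps18a and that of Mrps30 sit in the large subunit, and the Mrps36 product is known as an adaptor of the oxoglutarate dehydrogenase complex. The subunits below follow the symbols.

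Transcripts were counted in 65 single outer hair cells (OHCs), the sensory cells that amplify sound in the cochlea, picked from mice at postnatal day 10. Both groups carried Slc26a5 FlpO and Rosa26 FSF-H2BEGFP, which marks nuclei green wherever FlpO from the prestin locus has acted. The 48 WT cells had no other allele, and the 17 CKO cells came from mice with Atoh1 Cre and 2 floxed alleles of Casz1, a zinc finger transcription factor, so the groups differ by Cre as well as by Casz1. Atoh1 is switched on in hair cell precursors, so that Cre is not limited to OHCs. One sentence of the shared protocol text names other hair cells as the picked ones, while sample titles and design text name OHCs. Casz1 itself stood at 53.3 CPM (counts per 1000000 counts) in WT and 46.2 CPM in CKO cells, and counts over the whole gene do not check the deletion, so the directions given here depend on the labels alone.

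The mitochondrial ribosome translates only the few messages of the mitochondrial genome, all of them for subunits of the respiratory chain and the ATP synthase. Its RNAs come from mitochondrial DNA, but each of its proteins is encoded in the nucleus, made in the cytosol and imported. Some of these proteins have a bacterial counterpart and others arose in the mitochondrial lineage. Hair cells depend on this system, since inherited defects of mitochondrial translation, for example in the tRNA synthetase genes HARS2 and LARS2, can cause hearing loss in people.

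Totals ran from 7458126 to 17107710 counts per WT cell and from 8239671 to 15320549 per CKO cell. OHC markers were present in every cell, with the sum of 8 OHC genes at 16237 to 64659 CPM in WT and 34340 to 91011 CPM in CKO cells. The sum of 4 inner hair cell genes was 0, 94.6 and 1036 CPM in WT and 0.0653, 79.3 and 307 CPM in CKO cells (lowest, median, highest). The sum of 7 supporting cell genes ran from 1031 to 5718 CPM in WT and from 907 to 4042 CPM in CKO cells, with Sox2 and Prox1 at 0 in CKO, and its part in the results was not tested. The labels name no animal, so each genotype is 1 sample, no test was run, and all intervals (95%) cover counting error only. Sex-linked transcripts were unevenly spread: 9 WT and 15 CKO cells had counts of Xist (at least 10) with fewer than 10 of Y-linked genes, and 37 WT but 0 CKO cells had the reverse. Of those 9 WT cells, called Xist-pattern cells here, 8 lie among the 11 numbered 1 to 11, 1 among the 34 numbered 12 to 45 and 0 among the 3 numbered 46 to 48. Ratios are therefore also given within Xist-pattern cells and against each of these runs of WT numbers.

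The members lie on 17 chromosomes, and many sit close to another gene. In GENCODE M21 (GRCm38), 33 of the 78 members (42.3%) start within 1000 bases of the start of a protein-coding gene on the opposite strand, beside 10.7% of all 21535 protein-coding genes in the table and 17.9% of the 9749 that were measured here. One such pair consists of 2 members, Mrpl46 and Mrps11, whose starts on chromosome 7 are 412 bases apart and whose exons share 173 bases. Exons of 33 members overlap those of another gene, and since the strand setting of the counting is not given in the sources used here, reads in those stretches may belong to either gene.

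Promoter sequence from RefSeq (GRCm38.p6, 250 bases before to 50 after the start) was matched for 69 members. It was searched on both strands for 3 short motifs named after factors known to act on genes for mitochondria: NRF1 (GCGCA, any base, GCGC), ETS (CCGGAAG, the core bound by GABP and its relatives) and YY1 (AAGATGGC). The ETS motif was found in 26 of 69 members (37.7%), NRF1 in 13 (18.8%) and YY1 in 12 (17.4%), beside 11.8%, 6.32% and 3.40% of all 20977 genes with a promoter and 22.3%, 13.0% and 5.97% of the 8272 measured ones. At least 1 of the 3 was present in 43 members (62.3%), against 36.2% of measured genes. NRF1 matches were in 10 of 43 large-subunit and 3 of 26 small-subunit promoters, ETS matches in 15 and 11, and YY1 matches in 6 and 6. These matches describe letters, not binding.

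Of the matched members, 49 have at least 60 bases before the start that lie in no annotated exon. Such stretches held the NRF1 motif in 4 members, the ETS motif in 9 and the YY1 motif in 0. Those shown, 5′ to 3′ on the strand of the gene, are the member with most transcripts per length for each motif found, and the members with the lowest and the highest CKO to WT ratio. Capitals mark the motif.
Mrpl12, chr11:120484387-120484612, plus strand: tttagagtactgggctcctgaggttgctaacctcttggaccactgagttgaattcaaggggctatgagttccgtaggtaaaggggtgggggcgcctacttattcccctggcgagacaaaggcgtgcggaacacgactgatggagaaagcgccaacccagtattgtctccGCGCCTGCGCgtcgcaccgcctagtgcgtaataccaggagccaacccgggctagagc
Mrpl34, chr8:71464676-71464925, plus strand: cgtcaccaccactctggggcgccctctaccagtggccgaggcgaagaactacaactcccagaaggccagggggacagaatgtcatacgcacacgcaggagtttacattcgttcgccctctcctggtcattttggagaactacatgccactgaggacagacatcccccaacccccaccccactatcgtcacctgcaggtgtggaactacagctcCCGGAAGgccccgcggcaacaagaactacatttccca
Mrps22, chr9:98601680-98601929, minus strand: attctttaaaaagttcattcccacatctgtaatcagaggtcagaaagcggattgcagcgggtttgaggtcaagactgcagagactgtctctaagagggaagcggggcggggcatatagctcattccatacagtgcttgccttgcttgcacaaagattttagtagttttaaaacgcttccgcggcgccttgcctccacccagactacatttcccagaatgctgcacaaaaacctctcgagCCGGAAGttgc
Mrpl10, chr11:97041408-97041559, plus strand: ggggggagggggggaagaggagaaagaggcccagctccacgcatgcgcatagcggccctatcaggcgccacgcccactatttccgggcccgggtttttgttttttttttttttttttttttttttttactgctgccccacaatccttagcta
The NRF1 match of Mrpl12 begins 81 bases before its start. The ETS match begins 37 bases before the start in Mrpl34 and 11 bases before it in Mrps22. The Mrpl10 stretch, which ends 23 bases before the start, holds none of the 3 letter strings.

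Of the 78 members, 77 had counts in both groups, and all 77 reached 5 CPM in at least 1 group, the level at which a gene is called measured here. The exception was Mrpl53 (chromosome 6, 83109040 to 83109939, plus strand), with 0 counts in all 65 cells. A limit of 3 in 65 (4.62%), or 5.52% by the exact binomial interval, applies to cells with a count, not to cells that express the gene. Of its 790 exonic bases, 695 also lie in exons of Gm42688 on the same strand. Gm42688 held 314 counts in WT and 38 in CKO cells, and the part of this overlap in the missing counts was not tested.

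A member was typically seen in most cells but not in all. Over the 65 cells and 78 members, 24.8% of values were 0, 6.07% lay at 1 to 9 counts and 69.1% at 10 or more. A WT cell held counts of 47, 59 and 68 members (lowest, median, highest) and a CKO cell of 49, 59 and 64. With each cell thinned to 7000000 counts, the medians were 58 and 57. The number of members in a cell went with the number of all genes in it (Pearson r 0.65, Spearman rho 0.64 over 65 cells, which share the depth of each library).

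Present in all 65 cells were 9 members: Mrpl14, Mrpl20, Mrpl30, Mrpl33, Mrpl51, Mrps14, Mrps21, Mrps24 and Mrps33. At the other end, 13 members were found in under 50% of cells. The fewest cells held Mrps18b (16 of 65, 24.6%, 14.8% to 36.9%), Mrps22 (17 of 65, 26.2%, 16% to 38.5%) and Mrpl16 (19 of 65). Detection followed level closely (rho 0.92 across 77 genes, which are not independent). Mrps34, Mrpl52 and Mrpl43 stood off this trend, a choice made after their values were seen: they had counts in 53, 61 and 62 cells although WT levels were 15.6, 38.5 and 47.4 CPM.

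**Figure D1:**
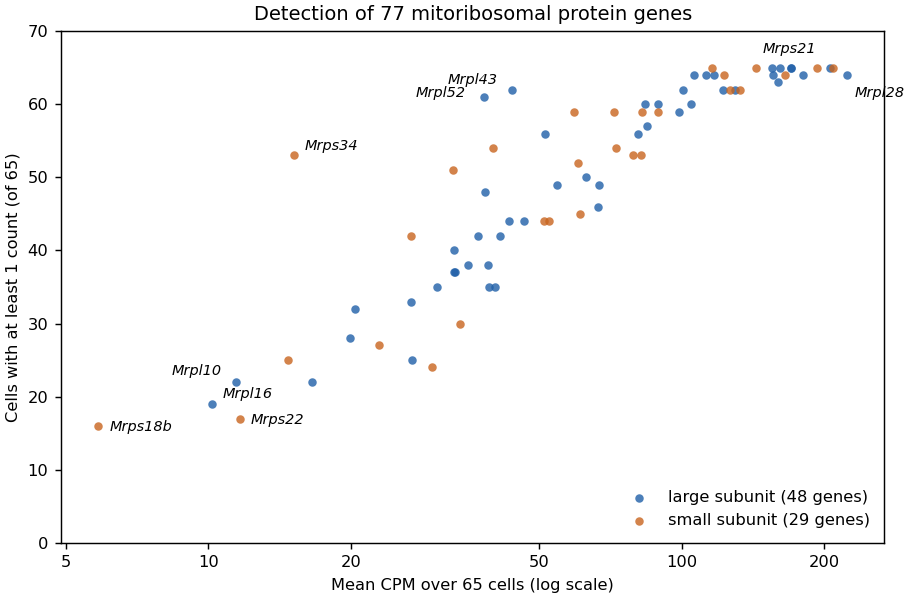
Mean CPM over 65 cells (x axis, log scale) against the number of cells with at least 1 count (y axis) for 77 member genes, large subunit in blue and small subunit in orange. Genes over about 100 CPM are found in nearly every cell, Mrps18b and Mrps22 in 16 and 17 cells, and Mrps34 in 53 cells at a low level.

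Levels can be compared between genes only per length, here as mean CPM per kilobase of annotated exon over all 65 cells. The range within a subunit was wide, 55.9-fold in the large and 92.9-fold in the small subunit, with medians of 23.4 and 25.5 CPM per kb. Mrps21, a small-subunit protein with a bacterial counterpart, was the highest of all at 261 CPM per kb. It was also among the steadiest, at 73.6, 188 and 434 CPM in WT cells (lowest, median, highest) and 94.8, 165 and 437 CPM in CKO cells. The groups overlapped almost fully, and its coefficient of variation was 37.5%. Next in the small subunit came Mrps12 at 118, Mrps33 at 85.9 and Mrps24 at 79.0 CPM per kb, of which Mrps12 encodes a protein of the decoding centre.

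In the large subunit Mrpl14 led at 179 CPM per kb, followed by Mrpl28 at 162, Mrpl34 at 138 and Mrpl27 at 132. Mrpl14 stood at 36.1, 130 and 418 CPM in WT and 76.0, 158 and 299 CPM in CKO cells (lowest, median, highest), so that the CKO cells lay within the WT range. The lowest levels per length were those of Mrps18b (2.81), Mrps22 (2.93), Mrpl16 (3.21) and Mrpl47 (3.75 CPM per kb). Per kb of the principal transcript, a length tried after the exon lengths of some members proved inflated by rare long isoforms, Mrps21 (395) and Mrpl33 (356) were highest, while Mrpl33 was at 23.2 CPM per kb of all exons. The 2 orders had a rho of 0.89 across the 77 genes.

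Small-subunit genes made only in the mitochondrial lineage were the least abundant class, with a median of 8.85 CPM per kb over 10 genes, beside 35.1 over the 18 with a bacterial counterpart. In the large subunit the medians were 29.2 over 18 and 23.1 over 30 genes. With principal transcript lengths they were 14.4 and 50.9 in the small and 31.1 and 42 in the large subunit, so the order of the large-subunit classes turned with the length used.

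As a whole, mitoribosomal protein transcripts took nearly the same share of counts in both groups, 0.602% in WT and 0.575% in CKO cells. The large-subunit genes summed to 3822 CPM in WT (3817 to 3827) and 3608 CPM in CKO cells (3599 to 3616), a log2 ratio of -0.08 (-0.09 to -0.08). Small-subunit genes summed to 2194 CPM (2191 to 2198) and 2143 CPM (2137 to 2150), a log2 ratio of -0.03 (-0.04 to -0.03) that turned to 0.01 with median-of-ratios size factors. Cell by cell, the large-subunit sum was 2512, 3731 and 6590 CPM in WT (lowest, median, highest) and 2452, 3649 and 4510 CPM in CKO cells. The small-subunit sum was 1298, 2207 and 3698 CPM in WT and 1505, 2112 and 2727 CPM in CKO cells. The small-subunit sums of all CKO cells lay within the WT range, as did the large-subunit sums but for the lowest CKO cell, while 9 WT cells (large) and 7 (small) lay above every CKO cell. A CKO cell was the higher one in 43.5% of all 816 possible pairings between the groups for the large and 44.9% for the small subunit.

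The small difference in the sums had the same sign against WT cells 1 to 11 (log2 -0.08 large, -0.04 small), against WT cells 12 to 45 (-0.10 and -0.03) and within Xist-pattern cells (-0.06 and -0.11). Against the 3 WT cells 46 to 48 it had the opposite sign (0.08 and 0.01). The gap between groups was smaller than the spread between cells: the WT quartiles were 3400 and 4382 CPM for the large and 1903 and 2509 CPM for the small subunit.

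**Figure D2:**
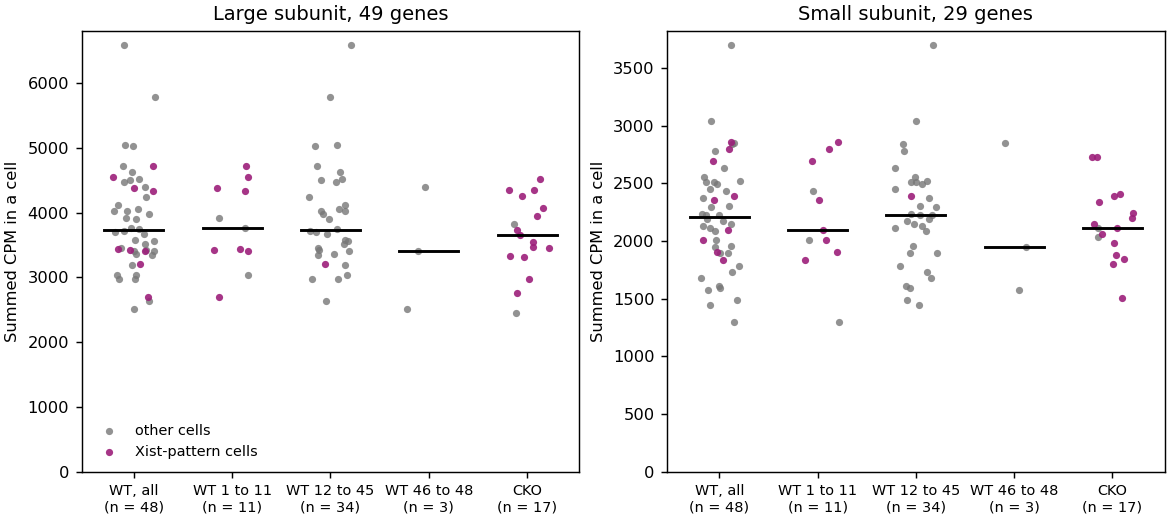
Summed CPM per cell (y axis) of the 49 large-subunit genes (left) and the 29 small-subunit genes (right) in all WT cells, the 3 runs of WT numbers and CKO cells. Each point is 1 cell, bars are medians, and purple marks Xist-pattern cells. CKO medians of 3649 and 2112 CPM lie within the spread of the WT cells.

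Large and small subunit sums rose and fell together across cells to a moderate degree, with r 0.51 and rho 0.47 over 65 cells (r 0.53 in WT and 0.33 in CKO cells). Both are shares of the same library total. The sum of all members went with the share of cytosolic ribosomal protein genes (r 0.68, rho 0.64) and against the number of genes detected (r -0.53, rho -0.41). Single members were little correlated: among the 9 found in all cells, the 36 pairwise r had a median of 0.03, and the highest was 0.50 for Mrps14 with Mrps33. For the paired genes Mrpl46 and Mrps11 r was -0.04. The ratio of large to small sum was 1.15, 1.73 and 2.56 in WT cells (lowest, median, highest) and 1.16, 1.62 and 2.36 in CKO cells.

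Gene by gene, 33 of 77 members were higher in CKO (42.9%), beside 50.4% of all 10842 measured genes. By subunit these were 21 of 48 and 12 of 29. The median log2 ratio was -0.06 in the large and -0.08 in the small subunit, and 0.01 over all measured genes. At least 1.5-fold higher in CKO were 7 members of 77 (9.09%; all measured genes 24.7%), and 9 were at least 1.5-fold lower (11.7%; all genes 23.3%). At least 2-fold apart were 1 higher member (1.30%; all genes 15.1%) and 5 lower ones (6.49%; all genes 14.5%). Among the 71 members that reached 20 CPM in the group where they were higher, 1 was 2-fold higher and 3 were 2-fold lower, beside 9.0% and 8.89% of all such genes.

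The median absolute log2 ratio was 0.29 over members beside 0.55 over all measured genes, which are not matched for level. By class of mean CPM it was 0.46 beside 1.00 (under 25) and 0.33 beside 0.49 (25 to 50). In the higher classes it was 0.25 beside 0.39 (50 to 100) and 0.22 beside 0.26 (100 and over). The share past 2-fold differed with level. Among members under 25 CPM on average, 3 of 10 were 2-fold apart, as were 50.1% of all genes in that class. In the classes from 25 to 50, 50 to 100 and over 100 CPM it was 2 of 22, 1 of 21 and 0 of 24 members, beside 18.5%, 10.5% and 4.22% of all genes. Within Xist-pattern cells, 7 members were at least 2-fold higher and 5 lower, beside 24.4% and 19% of all genes measured there. A count near or under these backgrounds is no result about the members.

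**Figure D3:**
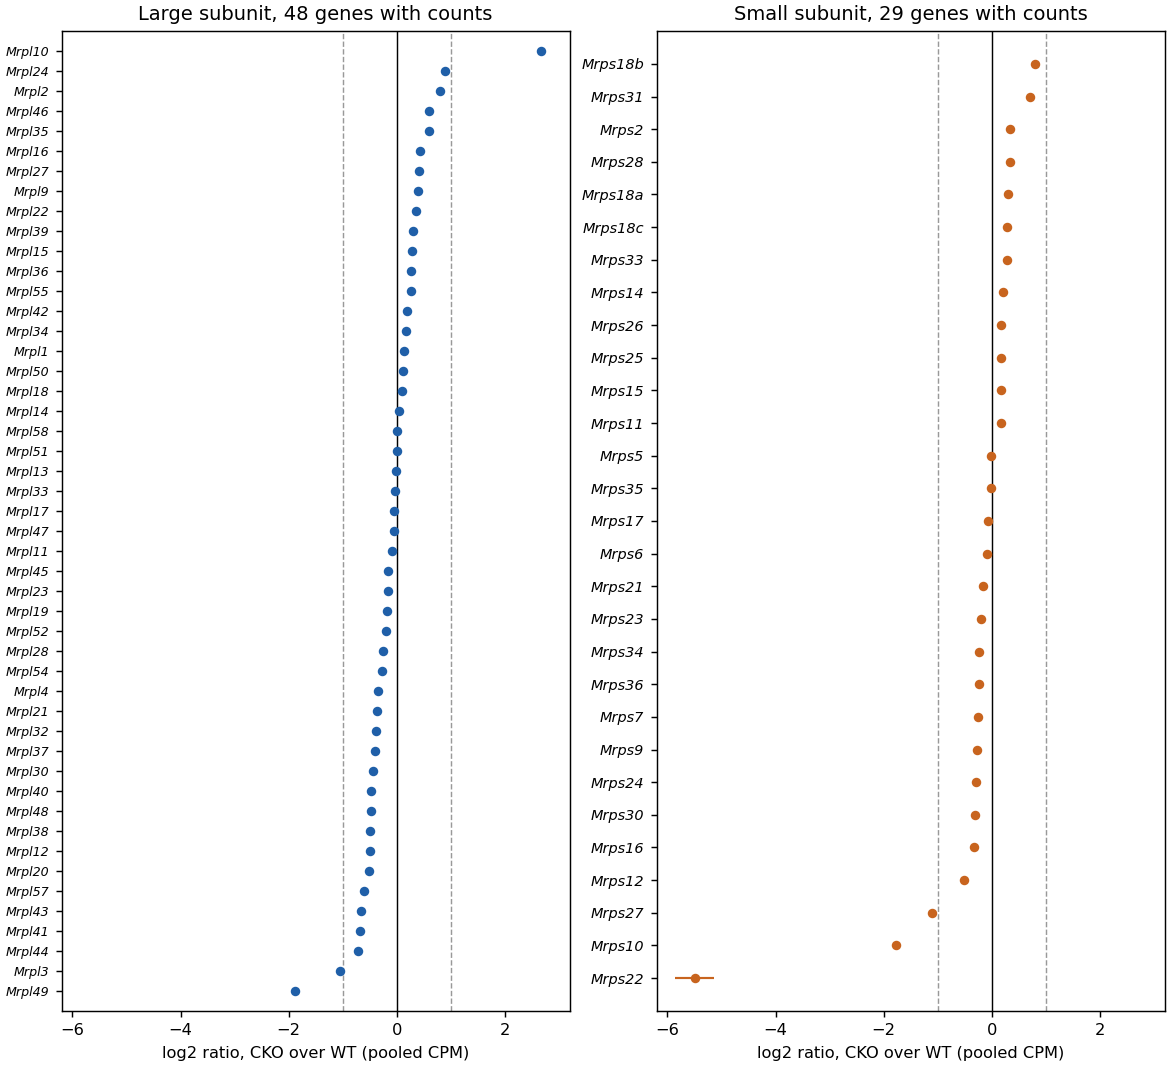
Log2 ratio of pooled CPM, CKO over WT (x axis), for 48 large-subunit genes (left) and 29 small-subunit genes (right), ordered by ratio. Lines are 95% counting intervals, mostly hidden by the points, and dashed lines mark 2-fold. All but 6 genes lie between the dashed lines, with Mrpl10 at 2.67 and Mrps22 at -5.49 farthest out.

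The lowest ratio belonged to Mrps22 (chromosome 9, 98588730 to 98601660, minus strand), a small-subunit protein without a bacterial counterpart whose loss causes mitochondrial disease in people. Its pooled level was 15.3 CPM in WT and 0.340 CPM in CKO cells, a log2 ratio of -5.49 (-5.86 to -5.15). Of the 48 WT cells, 8 held 41.9 to 180 CPM, 8 held fewer than 10 CPM and 32 held no count. In CKO, 1 of 17 cells had a count (5.88%, 0.149% to 28.7%), at 8.25 CPM, beside 16 of 48 in WT (33.3%, 20.4% to 48.4%). Most cells of both groups were thus at 0, and the difference lies in 8 WT cells. The ratio was -4.83, -5.0 and -7.93 against the 3 runs of WT numbers and -4.98 within Xist-pattern cells. Leaving out single cells moved it between -9.93 and -5.08, the lowest without the 1 CKO cell with a count, where 3 counts stood in for 0 and the ratio is a bound.

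Mrps10, a small-subunit protein with a bacterial counterpart (chromosome 17, 47368887 to 47381417, plus strand), showed the difference in more cells. It stood at 0, 37.2 and 329 CPM in WT cells (lowest, median, highest) and at 0, 0.080 and 112 CPM in CKO cells. At least 10 CPM was reached by 27 of 48 WT and 5 of 17 CKO cells, and the pooled log2 ratio was -1.78 (-1.83 to -1.73). Against the 3 WT runs the ratio was -1.25, -2.03 and -0.65, and within Xist-pattern cells -1.66.

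Mrpl49, a large-subunit protein without a bacterial counterpart (chromosome 19, 6053622 to 6057785, minus strand), stood at 48.7 CPM in WT and 13.2 CPM in CKO cells, a log2 ratio of -1.89 (-1.95 to -1.83). At least 10 CPM was found in 23 of 48 WT and 3 of 17 CKO cells. The highest WT cell had 242 CPM and the highest CKO cell 138 CPM, and without that CKO cell the ratio was -3.29. Fau, which starts 59 bases away on the opposite strand, stood at 115 and 131 CPM. Exons of Mrpl49 overlap those of Syvn1 (20.5 CPM in WT and 36.2 CPM in CKO cells), so reads in that stretch may belong to either gene. Of the other members past 2-fold, Mrpl3, Mrpl10 and Mrps27 overlap genes that stood at 0.142 CPM or less in both groups.

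The other 2 members at least 2-fold lower were Mrps27 and Mrpl3. Mrps27, a pentatricopeptide repeat protein, was at 18.5 CPM in WT and 8.63 CPM in CKO cells (log2 -1.10, -1.18 to -1.03), with counts in 22 of 48 and 3 of 17 cells. Its ratio was under 2-fold within Xist-pattern cells (-0.53), against WT cells 1 to 11 (-0.68) and against WT cells 46 to 48 (-0.83). Mrpl3, which lies near the peptidyl transferase centre, was at 51.3 and 24.9 CPM (log2 -1.04, -1.09 to -1.0), with counts in a like share of cells, 33 of 48 and 11 of 17. Its ratio was 0.17 against WT cells 46 to 48. Leaving out single cells moved Mrps27 between -1.91 and -0.92 and Mrpl3 between -1.56 and -0.84.

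Mrpl10 (chromosome 11, 97041560 to 97049213, plus strand), the protein that anchors the flexible stalk by which the ribosome recruits translation factors, was the only member at least 2-fold higher. It stood at 4.78 CPM in WT (4.6 to 4.97) and 30.3 CPM in CKO cells (29.6 to 31.1), a log2 ratio of 2.67 (2.60 to 2.73). Counts were found in 15 of 48 WT and 7 of 17 CKO cells, so the median was 0 in both groups. At least 10 CPM was held by 6 WT cells, at 12.4 to 66.2 CPM, and by 6 CKO cells, at 42.1 to 148 CPM, so the difference lies in the level of positive cells and in their share. The ratio was 2.2, 2.94 and 2.58 against the 3 WT runs, 2.05 within Xist-pattern cells, and 2.22 to 3.19 with single cells left out.

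**Figure D4:**
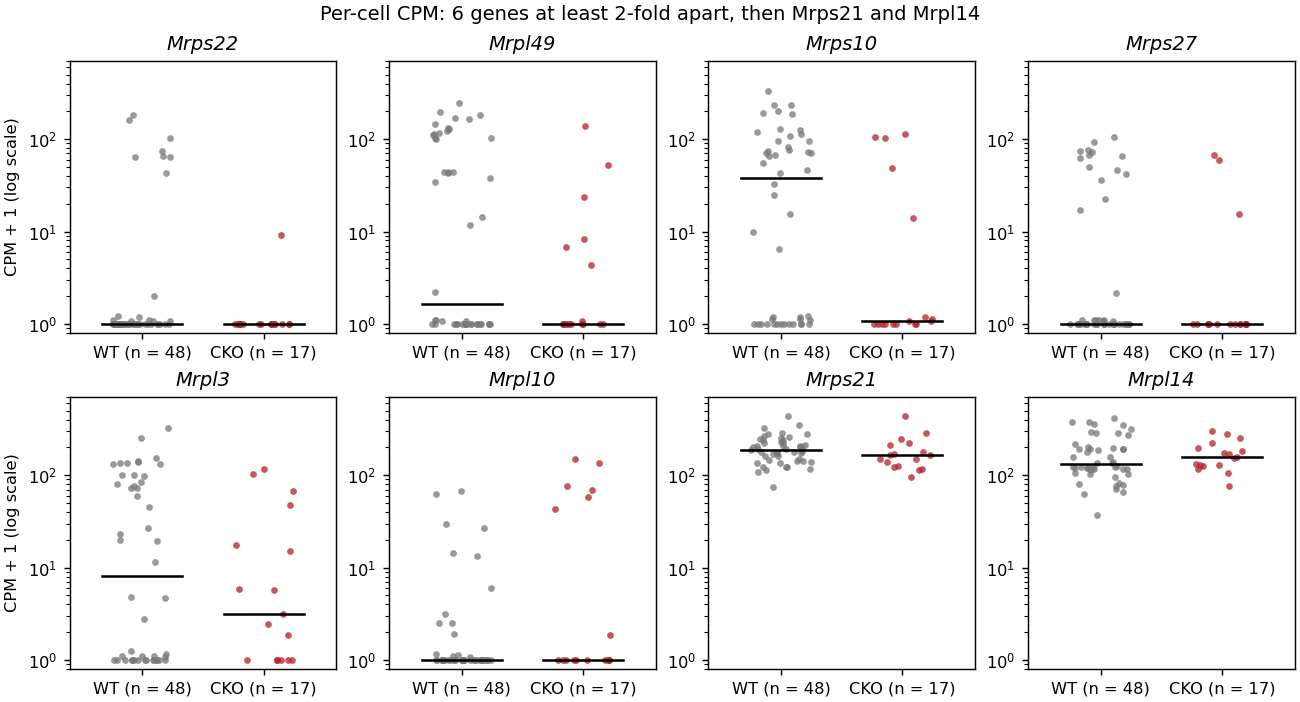
CPM + 1 per cell (y axis, log scale) for the 6 members at least 2-fold apart and for Mrps21 and Mrpl14, the highest per kb in each subunit. Points are cells, bars are medians. The 6 genes have many cells at 0 in both groups, Mrps22 reaches 8.25 CPM in 1 CKO cell, and Mrps21 and Mrpl14 overlap between groups.

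The partners of Mrpl10 in the stalk had lower ratios in the pooled counts. Mrpl11 was at 35.9 and 33.8 CPM (log2 -0.09), and Mrpl12, the stalk protein itself, at 110 and 77.7 CPM (log2 -0.50). For Mrpl11 the ratio was -1.05 against WT cells 1 to 11 and 0.45 against WT cells 12 to 45, and it had no count in WT cells 46 to 48. For Mrpl12 the ratio was -0.74, -0.48 and 0.97 against the 3 runs, so neither had a stable sign.

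Proteins of the central protuberance, which contacts the small subunit, were split. Mrpl38 (log2 -0.49), Mrpl40 (-0.48) and Mrpl48 (-0.48) were lower, while Mrpl18 was at 158 and 169 CPM (0.09) and Mrpl46 at 57.9 and 88.1 CPM (0.61). The median of the 5 was -0.48, and within Xist-pattern cells 0.24, where Mrpl38 (2.33) and Mrpl48 (0.24) were higher and Mrpl18 was at -0.09. Mrpl38 was also higher against WT cells 1 to 11 (0.96), Mrpl48 was at 0.03 and Mrpl46 at -0.07 against WT cells 46 to 48, and Mrpl40 had a negative ratio in each of these comparisons. Single-cell values of Mrpl48 were 0, 106 and 529 CPM in WT and 0, 56.7 and 385 CPM in CKO cells (lowest, median, highest), which overlap widely.

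At the tunnel exit, where the nascent chain meets the inner membrane, Mrpl24 was higher at 31 and 57.2 CPM (log2 0.89, 0.85 to 0.92), with a CKO cell the higher one in 63.2% of pairs. Mrpl22 had a log2 ratio of 0.36 (-0.04 against WT cells 12 to 45), Mrpl23 of -0.17 (0.61 against WT cells 46 to 48) and Mrpl45, which binds the membrane, of -0.16 (0.04 against WT cells 1 to 11). Mrpl44 was at 36.7 and 22.5 CPM (-0.71) in the pooled counts, but its median cell was at 0.101 CPM in WT and 0.788 CPM in CKO cells, the opposite order.

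All 3 paralogs of bacterial S18 were higher in CKO (50.4% of all measured genes), of which Mrps18b passed 1.5-fold (24.7% of all). Mrps18a was at 125 and 154 CPM (log2 0.31), Mrps18c at 29.1 and 35.5 CPM (0.28) and Mrps18b at 5.32 and 9.33 CPM (0.81). Mrps18b had counts in 9 of 48 WT and 7 of 17 CKO cells, and its highest cell, at 49.8 CPM, was a WT cell. Against WT cells 1 to 11 Mrps18a had a log2 ratio of -0.10, and within Xist-pattern cells -0.05, so the shared direction did not hold there.

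Among the remaining members, Mrpl2 was higher both in the pooled counts and in the median cell. It stood at 0, 37.9 and 158 CPM in WT and 0, 68.0 and 223 CPM in CKO cells (lowest, median, highest), a pooled log2 ratio of 0.80, with positive ratios against each WT run (0.55, 0.83 and 2.42). Mrps31 had a log2 ratio of 0.71, Mrps2 of 0.33 and Mrps28 of 0.33, the last at -0.24 within Xist-pattern cells. Mrps2 had counts in 19 of 48 WT and 5 of 17 CKO cells, and its CKO counts lay mainly in cells at 131, 233 and 212 CPM. On the lower side were Mrpl41 (87.5 and 54.5 CPM, log2 -0.68) and Mrps12 (132 and 92.7 CPM, -0.51). Mrps12 was higher in the CKO cell in only 32.5% of pairs, and Mrpl30, found in all cells, in 36.5% (210 and 155 CPM, -0.44). Mrps14, also in all cells, was at 198 and 228 CPM (0.21, and -0.42 against WT cells 46 to 48).

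Variation between cells was largest, among members found in at least 50% of cells, for Mrpl9 (coefficient of variation 193%), Mrpl19 (160%) and Mrpl45 (157%). Mrpl9 ranged from 0 to 291 CPM in WT and from 0 to 404 CPM in CKO cells, and 1 CKO cell held that highest value. Leaving out single cells moved the log2 ratio of Mrpl9 between -0.61 and 0.57 around its value of 0.40.

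By origin, large-subunit genes without a bacterial counterpart had a median log2 ratio of -0.33, with 12 of 18 lower, beside 0.02 and 15 of 30 lower for those with a counterpart. Within Xist-pattern cells these medians were -0.15 and -0.06, and against WT cells 1 to 11 -0.12 and 0.02. In the small subunit the medians were -0.11 over 10 genes and -0.04 over 18. By promoter motif, members with at least 1 of the 3 motifs had a median of -0.16 (42 genes) and those with none 0.06 (26 genes). The difference between such classes was not tested.

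The RNAs of the same ribosome come from the mitochondrial genome. The small-subunit RNA mt-Rnr1 was at 1783 CPM in WT and 1217 CPM in CKO cells (log2 -0.55), and the large-subunit RNA mt-Rnr2 at 9524 and 7554 CPM (-0.33). All 12 measured mitochondrial messages were lower in the pooled counts, with a median of -0.48. That direction was not stable: the median was -0.13 within Xist-pattern cells, where mt-Co3 (1.30), mt-Atp6 (1.09), mt-Co2 (0.80), mt-Atp8 (0.45) and mt-Nd3 (0.25) were higher, -0.17 against WT cells 1 to 11 and 0.11 against WT cells 46 to 48. The median of the 2 RNAs was -0.05 in that last comparison. Of 6 measured genes with other symbols, for mitoribosomal proteins and for Oxa1l, the membrane insertase that docks on the ribosome, all were higher (50.4% of measured genes), with a median of 0.27 and none past 1.5-fold, led by Chchd1 (60.1 and 89.6 CPM). Dap3 was lower within Xist-pattern cells (-0.33), Ptcd3 against WT cells 12 to 45 (-0.03), and Oxa1l (-0.95), Gadd45gip1 (-0.17) and Ptcd3 (-0.10) against WT cells 46 to 48, where the median was 0.01.

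Counts over the other nuclear genes that serve this ribosome are read against the 50.4% of all measured genes that were higher, and the 24.7% and 23.3% at least 1.5-fold higher and lower. Of 12 translation factors, 7 were higher (4 past 1.5-fold) and 5 lower (2 past 1.5-fold). Their median was 0.34, and -0.16 against WT cells 46 to 48, while it was positive in the other comparisons. Ratios rested on few cells for Taco1 (1.35, in 4 WT and 3 CKO cells), Mtrf1l (-1.25, in 10 and 4) and Mtfmt (-1.35, in 22 and 1). Measured genes for aminoacyl-tRNA synthetases and the amidotransferase numbered 18 together, of which 8 were higher and 10 lower. The largest ratios rested on few cells, such as Pars2 (5.04, with counts in 4 WT cells and 1 CKO cell) and Wars2 (-2.12, in 13 and 2). Within Xist-pattern cells Mtfmt and Wars2 had the opposite sign, at 0.94 and 4.65. Assembly factors split 11 to 14, with a median of -0.13. It was 1.32 against WT cells 46 to 48, 0.02 against WT cells 1 to 11 and negative in the other comparisons. Their largest ratios also rested on few cells. These were Gtpbp10 (-2.39, in 10 WT and 3 CKO cells), Mettl15 (-2.04, in 8 and 1) and Eral1, which binds the small ribosomal RNA (1.63, in 13 and 6). Gtpbp10 turned sign against WT cells 46 to 48, and Mettl15 there, against WT cells 1 to 11 and within Xist-pattern cells. Among genes of mitochondrial transcription and RNA processing, 5 were higher and 10 lower. Their median was -0.26, and 0.44 against WT cells 1 to 11, while it was negative in the other comparisons. Polrmt, the RNA polymerase, was at 1.23 and 15 CPM (3.61), with counts in 8 WT and 7 CKO cells and a median of 0 in both groups. Tfam, its partner on DNA, was at 44.5 and 16.1 CPM (-1.47). Of 9 measured regulators 2 were higher and 7 lower. Among those whose motifs were searched above, Yy1 was at 0.21 and Nrf1 at -0.42. The subunits of GABP, the ETS factor named, were at -1.06 (Gabpa), -0.19 (Gabpb1) and -0.04 (Gabpb2). Against WT cells 46 to 48 Nrf1 (9.04), Gabpa (6.24) and Gabpb1 (7.91) had the opposite sign. Gabpb2 turned sign against WT cells 1 to 11 and 12 to 45 (0.05 and 0.08). Gabpa had counts in 19 WT and 5 CKO cells. In the import and matrix list 9 of 16 were higher, near the share of all genes, among them the chaperonin genes Hspd1 (127 and 257 CPM, 1.01) and Hspe1 (99.5 and 196 CPM, 0.98).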

How the data were processed

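RNA was measured in 65 single OHCs with the Smart-Seq HT kit, full-length and without molecular identifiers, per the labels' protocols. What the authors deposited is a single table with raw counts, as whole numbers. Per the submitters' processing notes, HISAT2 2.2.1, StringTie 2.2.1 and featureCounts 2.0.1 were used on mm10, while the strand setting, annotation and filters were not stated. Positions and lengths come from GENCODE M21, which holds 78 of 78 members.

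Counts were summed per genotype and divided by the summed totals (CPM). Sums carry exact Poisson intervals, ratios exact conditional and shares exact binomial (Clopper-Pearson) intervals at 95%. Reads are not independent molecules, so these cover counting error only. A gene with 0 counts in 1 group was set to 3 counts there. No doublet caller was run, since cells were picked singly, and of 2080 pairs of cells 0 were identical. Depths are given with the results. The Xist pattern was used only to recompute ratios.

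The members and lists were chosen with earlier results of these data known. Named were, per subunit, the 4 highest and 2 lowest per kb, up to 4 with the highest and 4 with the lowest ratio, the 3 in most and 3 in fewest cells, the 3 most variable, members without counts, all of 4 structural lists, and up to 3 per other list. Alternatives were means or medians per cell, edgeR 4.0.16 TMM and DESeq2 1.42.0 size factors, another total, thinning, other filters, subsets of cells and each cell left out. Chosen after seeing the data were the principal transcript length, classes of level, neighbouring starts and correlations of single pairs of members. Scripts were tested on simulated data (Python 3.11.15, scipy 1.17.1).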

Additional observations from a re-analysis of the deposited data

How the results depend on the processing

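No paired analysis was possible because the numbers in the titles are names of single cells and nothing was tested. All values rest on 1 sample per genotype, and counting error is largest for the 308 of 5070 values at 1 to 9 counts.

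The large-subunit sum (log2 ratio -0.083) stayed negative except against WT cells 46 to 48, where it was 0.0775. It was -0.0885 with the mean of per-cell CPM, -0.0321 with the median, -0.126 with TMM, -0.0414 with median-of-ratios factors, -0.115 with mitochondrially encoded and cytosolic ribosomal genes taken out of the total, -0.0444 without the cell with most counts in each group, -0.0575 in Xist-pattern cells, -0.0986 against WT cells 12 to 45 and -0.0706 with Mrps18a and Mrps30 added. Leaving out 1 cell gave -0.107 (without CKO cell 9) to -0.0455 (without CKO cell 14), and -0.0947 to -0.0671 for WT cells.

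The small-subunit sum (-0.034) was -0.0492, -0.0630, -0.0768, 0.00788 and -0.0656 under the first 5 of these settings, -0.0505 with thinned cells, -0.114 in Xist-pattern cells, -0.0431 against WT cells 1 to 11, 0.0104 against WT cells 46 to 48 and -0.0484 without Mrps18a, Mrps30 and Mrps36. Its sign thus turned with median-of-ratios factors and against WT cells 46 to 48. Leaving out 1 cell gave -0.0601 (without CKO cell 8) to -0.00731 (without CKO cell 17), and -0.0487 to -0.0191 (without WT cell 23) for WT cells. The scalings shifted all log2 ratios by -0.043 (TMM), 0.042 (median-of-ratios) and -0.032 (the other total).

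The number of members at least 2-fold apart (6) was 12 with medians per cell, 12 in Xist-pattern cells, 26 against WT cells 46 to 48 and 2 among the 45 members that overlap no other gene. The number at least 1.5-fold apart (16) was 29 in Xist-pattern cells, 26 against WT cells 1 to 11, 44 against WT cells 46 to 48 and 7 without overlapping members, where 18 rather than 33 were higher, from fewer members. In Xist-pattern cells and against these WT runs, more of all measured genes passed too. Against WT cells 46 to 48, 3631 of 10708 were at least 2-fold higher and 2272 lower. At 1.5-fold these were 4291 and 3140. They were 3473 and 2920 of 11073 against WT cells 1 to 11, and 3668 and 3038 of 11111 in Xist-pattern cells. In these comparisons a smaller share of members than of all genes passed. No such background is given for the other settings. Leaving out 1 cell gave 5 to 7 members 2-fold apart, 13 to 18 at 1.5-fold and 31 to 37 higher. The median log2 ratio of the large subunit was 0.191 against WT cells 46 to 48, and with 1 cell left out -0.129 to -0.0153 (large) and -0.134 to -0.0250 (small).

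Of 13 named members at least 1.5-fold apart, 3 changed sign in 1 setting each: Mrpl44 with medians per cell (2.97), and Mrpl3 (0.171) and Mrpl46 (-0.0733) against WT cells 46 to 48. The causes were not tested. Among the other 27 named members, 20 changed sign under at least 1 setting.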
